A study of Mus musculus with 32 samples.

Results

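Itgb2l, B3galt5, Zc3h11a and BC005561 are 4 genes whose transcripts were more abundant in mice lacking ketohexokinase (Khk KO) than in wild-type (WT) mice wherever an organ's deposited table listed them. They were chosen by name from the comparison of the genotypes itself, for large differences that returned from organ to organ, so their differences are a description and carry no test. All 4 were found, among 10055 genes listed in at least one table: Itgb2l in all 4 organs, Zc3h11a in liver, jejunum and ileum, BC005561 in liver and ileum, and B3galt5 in duodenum and ileum. The tables list a gene only if its unadjusted p was under 0.05 in the authors' own test, so an organ whose table lacks a member gives no value for it.

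Ketohexokinase, encoded by Khk, phosphorylates fructose as its breakdown begins. Polyadenylated RNA was sequenced from the liver, duodenum, jejunum and ileum of male mice, 4 libraries for each organ and genotype and 32 in all. The study asked how fructose and ketohexokinase bear on iron balance. The labels give the genotypes as WT and Khk KO, with no strain, age, diet, Khk allele or origin of the mice, and do not tie libraries to animals or say whether organs came from the same ones. Any strain difference between the groups would follow the same split of 4 against 4 libraries as the loss of Khk, so the effect of genotype and the effect of strain cannot be told apart.

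The 4 genes play different roles. Itgb2l encodes a protein resembling the leukocyte integrin beta chain Itgb2 and is known from cells of the neutrophil lineage. B3galt5 encodes a Golgi enzyme that joins galactose to N-acetylglucosamine, building a type of sugar chain carried by gut epithelium. Zc3h11a encodes a zinc-finger protein that acts with the TREX complex, which couples transcription to the export of messenger RNA from the nucleus. BC005561, named Thoc2l in RefSeq, is a relative of Thoc2, the scaffold of the THO core of TREX.

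The sites of the 4 genes lie on 3 chromosomes of the mouse build GRCm38, and their positions in the files equal those of GENCODE M21. B3galt5 (ENSMUSG00000074892, chromosome 16, 96235801 to 96319859, plus strand) and Itgb2l (ENSMUSG00000000157, chromosome 16, 96422288 to 96443619, minus strand) are neighbours with 102 kb between them, pointing towards each other. Itgb2l lies within the span of Igsf5 on the other strand, without a shared exon base. Zc3h11a (ENSMUSG00000102976, chromosome 1, 133619862 to 133661380, minus strand) shares its locus with the gene models Gm38394, Zbed6 and a second gene of the same symbol. BC005561 (ENSMUSG00000079065, chromosome 5, 104508352 to 104522611, plus strand) is the one member on the chromosome of Khk, 73.6 Mb away from it.

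The promoters of 3 of the 4 members are in the RefSeq table of build GRCm38.p6, each 300 bases long, from 250 before to 50 after the annotated start. They are shown because each member averaged higher in Khk KO, and they come from the reference strain C57BL/6J, not from these mice. Capitals mark matches to CACGTG, the E-box, a letter string that helix-loop-helix factors can bind. The Itgb2l promoter is chr16:96443565-96443864 on the minus strand, that of B3galt5 at the second of its 3 annotated starts is chr16:96273263-96273562 on the plus strand, and that of Zc3h11a is chr1:133661350-133661649 on the minus strand.
Itgb2l: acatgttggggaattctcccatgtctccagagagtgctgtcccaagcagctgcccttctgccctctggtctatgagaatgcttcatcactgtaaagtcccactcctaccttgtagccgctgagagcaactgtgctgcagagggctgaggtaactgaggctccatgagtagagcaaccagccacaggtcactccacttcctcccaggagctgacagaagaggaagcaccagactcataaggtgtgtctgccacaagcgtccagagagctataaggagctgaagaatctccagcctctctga
B3galt5: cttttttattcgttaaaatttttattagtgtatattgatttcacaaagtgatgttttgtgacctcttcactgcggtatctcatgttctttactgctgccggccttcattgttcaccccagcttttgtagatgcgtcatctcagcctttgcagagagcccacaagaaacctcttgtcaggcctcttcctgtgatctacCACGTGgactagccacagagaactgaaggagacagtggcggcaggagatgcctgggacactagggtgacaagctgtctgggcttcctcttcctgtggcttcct
Zc3h11a: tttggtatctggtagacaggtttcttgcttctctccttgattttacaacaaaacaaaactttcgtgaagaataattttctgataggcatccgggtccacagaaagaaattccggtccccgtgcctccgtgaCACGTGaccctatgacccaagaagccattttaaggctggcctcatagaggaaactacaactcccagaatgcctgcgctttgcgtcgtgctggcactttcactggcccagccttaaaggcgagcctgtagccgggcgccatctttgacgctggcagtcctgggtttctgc
On both strands, the promoters were searched for TATAAA (the TATA box, in 13.6% of the 32851 promoters of that table), CCAAT (the CCAAT box, in 37.4%), GGGCGG (the GC box, in 35.7%) and the E-box (in 7.15%). The 2 matches found were both E-boxes, 53 bases before the B3galt5 start and 119 bases before the Zc3h11a start. The other 2 starts of B3galt5 and the single start of Itgb2l held none of the 4 motifs.

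BC005561 has 2 exon blocks, and 4748 of its 4767 coding bases aligned to the coding sequence of Thoc2 at 87.0% identity. A stretch of 120 coding bases is shown for both genes because reads can only be assigned to one or the other where they differ. It covers coding bases 20 to 139 of BC005561 and 14 to 133 of Thoc2, from GENCODE M21, and capitals mark the 20 positions at which they differ.
BC005561: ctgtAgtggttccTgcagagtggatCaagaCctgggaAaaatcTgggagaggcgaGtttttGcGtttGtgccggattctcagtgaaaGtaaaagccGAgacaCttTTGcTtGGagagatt
Thoc2: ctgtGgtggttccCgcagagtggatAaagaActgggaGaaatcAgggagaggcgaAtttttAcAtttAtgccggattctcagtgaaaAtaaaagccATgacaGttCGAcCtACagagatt
Over the whole transcript, 0.131% of the 50-base words of BC005561 occurred in another annotated gene, Thoc2, on either strand. For Zc3h11a the share was 68.0%, and for Itgb2l and B3galt5 no 50-base word occurred elsewhere.

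Before the members, the libraries were checked. Khk was lower in every Khk KO library than in every WT library of its organ, at 83.8 to 1000.3 against 1174 to 24008 normalised counts over the 4 organs. Marker genes are visible only where a table lists them: Ttr in the liver reached 4981 FPKM or more in each of its libraries, and Sis, the gene of the enterocyte enzyme sucrase-isomaltase, reached at least 187 FPKM in duodenum and 368 in jejunum. In ileum Lgals4, another enterocyte gene, reached at least 719 FPKM. Slc51a, a bile acid transporter gene, overlapped between segments and ran from 59.0 to 175 FPKM in duodenum and from 145 to 333 in ileum. Libraries also differed along gene length. The slope of a library's deviation on log2 gene length ran from 0.23 to 0.28 in the 4 Khk KO livers and from -0.50 to 0.024 in the WT livers, and the genotypes did not overlap in it in any organ, at 0.057 to 0.18 against -0.36 to 0.0034 in duodenum, 0.061 to 0.24 against -0.38 to -0.049 in jejunum and 0.18 to 0.21 against -0.35 to -0.073 in ileum. A positive slope means that longer transcripts, among the genes used, were relatively more abundant in that library. The slopes rest on listed protein-coding genes alone, which passed an unadjusted p under 0.05 between the genotypes. That choice can itself set the genotypes apart, so the split is not a separate check of the libraries. In the liver, WT replicate 1 stood apart from the other 3 WT libraries, whose slopes were at most -0.25, and the members' liver values are given with and without it. WT replicate 1 also stood apart, at the other end, in duodenum, at -0.36 against -0.085 to 0.0034 in the other 3 WT libraries, and in jejunum, at -0.38 against -0.11 to -0.049. All 4 members have longer exon models than Khk, of 4324 to 6159 bases against 1797.

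**Figure D1:**
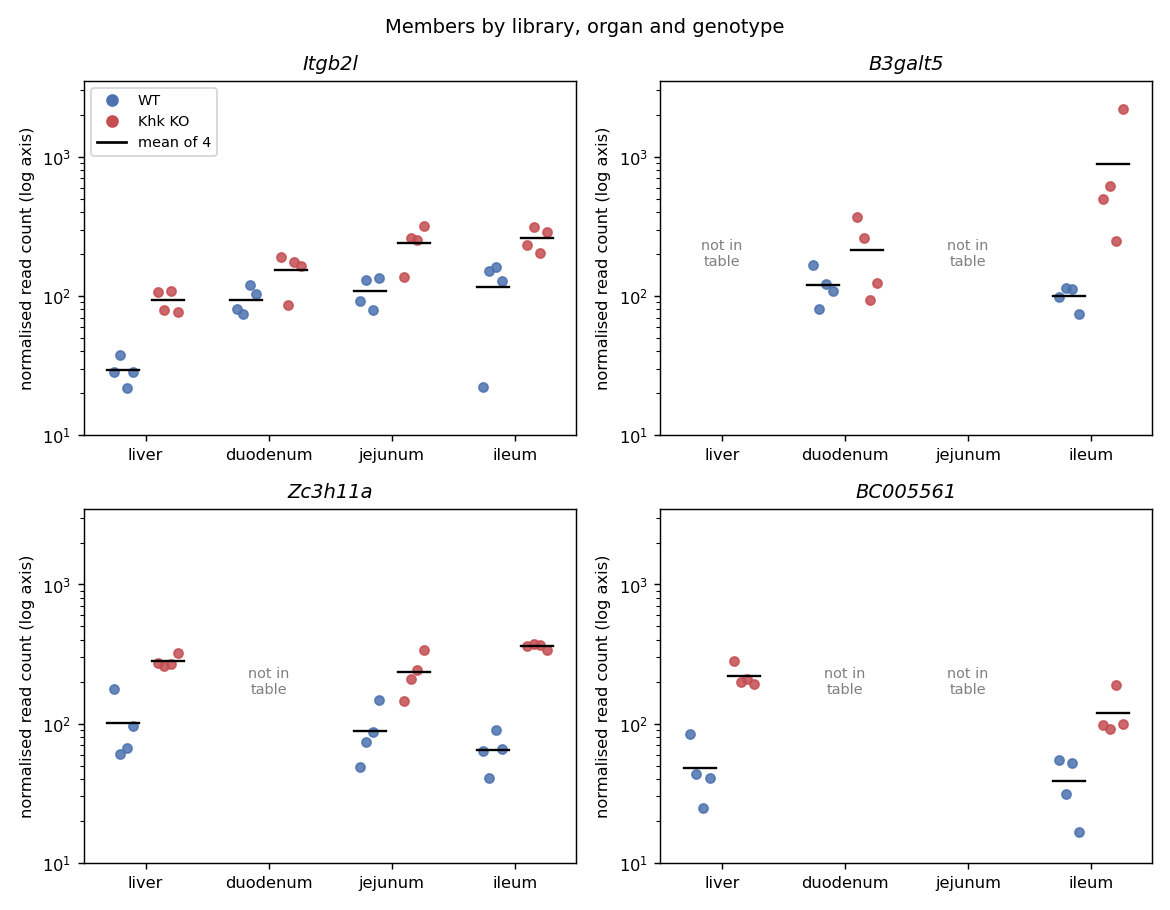
Normalised read counts (log axis) of Itgb2l, B3galt5, Zc3h11a and BC005561 in each library, by organ, with WT in blue, Khk KO in red and a line at the mean of 4. The genotypes were apart in ileum for all 4 genes and overlapped for both genes listed in duodenum.

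In all, the tables hold 11 pairs of a member and an organ, and in 8 of them every Khk KO library was above every WT library. The share of all genes in the table for which that holds was 34.3% in liver, where it held for 3 of 3 members, and 36.9% in ileum, where it held for 4 of 4. The share was 33% in jejunum, with 1 of 2 members, and 20% in duodenum, with 0 of 2. The authors' deposited table called 3 members higher in liver at an adjusted p under 0.05, where it called 12.5% of the genes it adjusted over higher. It called 4 members in ileum (8.76% of genes), 2 in jejunum (0.536%) and 0 of the 2 listed in duodenum (0.128%). Since the members were picked from this contrast, these counts say nothing beyond the choice.

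Itgb2l was the one member listed in every organ. In liver the 4 Khk KO libraries held 107, 79.3, 109 and 77.2 normalised counts and the 4 WT libraries 28.5, 37.9, 21.9 and 28.5. The lowest Khk KO liver held 2.04 times the highest WT liver. The means were 93.4 ± 17.5 and 29.2 ± 6.56 (SD, n = 4), and edgeR put the difference at 1.68 ± 0.28 (SE) on the log2 scale, or 1.67 ± 0.31 (SE) without WT replicate 1.

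In jejunum, the Khk KO libraries held 136, 262, 253 and 317 normalised counts of Itgb2l against 92.7, 130, 79.1 and 135 in WT. The genotypes were barely apart there, with the lowest Khk KO library at 1.01 times the highest WT library. In ileum the Khk KO libraries held 231, 314, 204 and 287 normalised counts and the WT libraries 22.4, 150, 163 and 128. WT replicate 1, which also had the lowest slope on gene length in ileum, was far below the other WT libraries. The log2 fold change was 1.15 ± 0.43 (SE) with that library and 0.82 ± 0.19 (SE) without it.

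In duodenum Itgb2l overlapped between the genotypes, at 190, 86.5, 176 and 165 normalised counts in Khk KO against 80.3, 74.2, 119 and 104 in WT. Khk KO replicate 2 lay among the WT libraries. The log2 fold changes were 1.15 ± 0.29 (SE) in jejunum and 0.71 ± 0.27 (SE) in duodenum, and 1.07 and 0.64 without WT replicate 1. Whether the organs differed in this fold was not tested, because each table was normalised alone.

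The trend of gene length made little difference to Itgb2l. With that trend taken out of each library, its log2 fold change was 1.72 in liver, 0.68 in duodenum, then 1.22 in jejunum and 1.18 in ileum. In liver, the 200 listed protein-coding genes nearest to it in length had a median authors' log2 fold change of -0.39, and 2.5% of them lay above Itgb2l. In jejunum and ileum those medians were -0.43 and -0.32, with 5.0% above it in each, while in duodenum the median was 0.27 with 12.5% above. The members were picked for large rises in this contrast. Such shares, here and for the other members below, therefore say nothing beyond the choice.

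Per length, Itgb2l was a weakly expressed gene. Its WT level was 0.580 ± 0.131 FPKM in liver, 1.06 ± 0.234 in duodenum, 1.29 ± 0.723 in ileum and 1.49 ± 0.368 in jejunum (SD, n = 4). The 3 intestinal segments lay within each other's spread, and so did liver and ileum, while liver lay below duodenum and jejunum by more than their SDs. The scale was set separately in each table. Its Khk KO level ran from 1.74 ± 0.523 FPKM in duodenum to 3.30 ± 1.05 in jejunum (SD, n = 4).

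Itgb2l is known from neutrophils, so markers of these cells were followed, although a marker that no table lists gives no value. Of 16 neutrophil markers, among them S100a8, S100a9, Mpo and Elane, 1 each was listed in the liver, duodenum and jejunum and 0 in the ileum, and 0 were called by edgeR or by the authors' deposited tables. The authors' deposited tables called 23.9%, 0.224%, 0.759% and 15.6% of the genes adjusted over, named all genes in such shares below. These count either direction, in the order liver, duodenum, jejunum, ileum. The marker listed in liver was Cxcr2, a chemokine receptor gene, whose values came to 1.82 to 18.2 normalised counts in Khk KO against 0 to 2.19 in WT. The marker in duodenum was Mmp9, a protease gene, at 168 to 307 normalised counts in Khk KO against 99.8 to 199 in WT. Prtn3, a granule protease gene, was the one in jejunum, at 0.921 to 13.3 normalised counts in Khk KO and 0 in every WT library. These 3 markers averaged higher in Khk KO. Each is seen only because it passed the p filter between the genotypes in that organ, so their direction is not read further. The part of neutrophils in the Itgb2l values was not tested. In bulk tissue, more cells of a type and more RNA per cell cannot be told apart.

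Of 13 other integrin chain genes, liver listed 0, and duodenum, jejunum and ileum listed 3 each. The one called by the authors' deposited tables was Itgb8, a chain that pairs with the alpha-V integrin, in ileum, with a mean of 40.6 normalised counts in knockouts and 16.4 in controls and an authors' log2 fold change of 1.31, beside 15.6% of all genes called in ileum. Itgb2 itself, whose protein Itgb2l resembles, was in none of the 4 tables used here.

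B3galt5 in ileum had the largest difference of the 11 pairs and the widest spread among Khk KO libraries, with a coefficient of variation of 99.4%. In ileum the 4 Khk KO libraries held 498, 621, 248 and 2201 normalised counts, and the 4 WT libraries 98.2, 115, 113 and 74.5. Every Khk KO library was above every WT library, the lowest of them by 2.16 times, and Khk KO replicate 4 held more than the other 3 together. The means were 892 ± 886 and 100.2 ± 18.7 (SD, n = 4), and the log2 fold change of 3.15 ± 0.58 (SE) became 2.18 without replicate 4.

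In duodenum, B3galt5 overlapped between the genotypes. The Khk KO libraries held 371, 262, 93.6 and 123 normalised counts and the WT libraries 166, 81.2, 122 and 108. Replicates 1 and 2 of Khk KO were above all WT libraries and replicates 3 and 4 were among them. The log2 fold change of 0.84 ± 0.43 (SE) became 0.43 without Khk KO replicate 1, 1.04 without WT replicate 1 and 0.67 with the trend of gene length taken out.

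The highest ileum library of B3galt5 was not the highest for its neighbour Itgb2l. Khk KO replicate 4 of the ileum held 287 normalised counts of Itgb2l, second to replicate 2 with 314. In FPKM, B3galt5 stood at 0.780 ± 0.155 in WT ileum and 0.943 ± 0.279 in WT duodenum (SD, n = 4), within each other's spread. The gut epithelium that B3galt5 is known from was followed by 7 enterocyte markers. In ileum 4 were listed, all lower in Khk KO. Their summed level ran from 56491 to 65914 normalised counts in Khk KO against 75656 to 132088 in WT. In duodenum 1 of the 2 listed markers was higher in Khk KO, and in jejunum 2 of the 3 listed. Each is seen only because it passed the p filter between the genotypes in that organ, so neither direction nor sum is read further. The part of epithelial cells in the B3galt5 values was not tested. Among the 200 protein-coding genes of the ileum table nearest to B3galt5 in length, with a median authors' log2 fold change of 0.44, 0.5% lay above it.

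B3galt5 belongs to the enzymes that build the ends of sugar chains, and a list of 48 others was followed. In ileum 6 were listed, and the authors' deposited table called 4 of the 48, all higher in Khk KO. It called 8.76% of all genes higher and 15.6% in either direction. The 48 may include genes that were not adjusted over, so the bases differ. Gcnt4, which with Gcnt3 encodes enzymes that branch mucin-type chains, averaged 953 ± 268 normalised counts in knockouts and 528 ± 54.1 in controls, and Gcnt3 3815 ± 1027 against 2367 ± 515 (SD, n = 4). C1galt1, the gene of the enzyme that extends the core of those chains, averaged 2297 ± 72.3 against 1501 ± 384, and B3galnt2 390 ± 59.0 against 274 ± 29.5 (SD, n = 4).

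Of the 48 sugar chain enzymes, 6 were called in liver by the authors' deposited table, 1 higher and 5 lower, beside 23.9% of all genes. C1galt1 was the higher one, at 1305 ± 65.2 against 909 ± 113 normalised counts, and the largest of the lower ones were B3galt4, at 0.227 ± 0.454 against 6.03 ± 2.83, B3galnt1, at 6.97 ± 3.92 against 24.2 ± 17.1, and St6galnac6, at 507 ± 58.7 against 729 ± 148 (SD, n = 4). Duodenum and jejunum listed 4 each and the authors' deposited tables called 0 in both. By edgeR, 2 of the 48 passed in liver, 2 in ileum and 0 in duodenum and jejunum. In that order it called 15.4%, 9.89%, 0.0064% and 0.0101% of the genes adjusted over.

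Zc3h11a in ileum had the smallest coefficient of variation among Khk KO libraries of the 11 pairs. The 4 libraries held 360, 371, 367 and 337 normalised counts, a value of 4.22%, and the 4 WT libraries 63.4, 40.4, 90.2 and 66.2. The lowest Khk KO library held 3.74 times the highest WT library. The means were 359 ± 15.1 and 65.1 ± 20.3 (SD, n = 4), with a log2 fold change of 2.47 ± 0.22 (SE).

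In liver, Zc3h11a read 272, 258, 270 and 323 normalised counts in Khk KO and 178, 60.6, 66.5 and 96.8 in WT. The genotypes were apart, and WT replicate 1, the liver that also stood apart along gene length, was the highest WT library. The log2 fold change of 1.49 ± 0.31 (SE) was 1.91 ± 0.21 (SE) without it. In jejunum the Khk KO libraries held 146, 208, 241 and 340 normalised counts and the WT libraries 49.1, 73.6, 86.9 and 148, so that the lowest Khk KO library was just under the highest WT library. The log2 fold change in jejunum was 1.38 ± 0.36 (SE), and 1.18 ± 0.32 (SE) without WT replicate 1, its lowest WT library.

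The count of Zc3h11a is uncertain because of its neighbours in the annotation. Gm38394 shares 72.8% of its 6031 exon bases, the second gene named Zc3h11a 72.9%, and Zbed6, which encodes a transcription factor born of a transposon inside the locus, 1.23%, all on the same strand. That leaves 1508 exon bases that belong to Zc3h11a alone. Reads over shared exons can be split or dropped, depending on the counting tool, which is not given in the sources used here.

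Gm38394 differed in the same direction. In ileum it held 106, 136, 168 and 133 normalised counts in Khk KO against 21.1, 8.08, 14.5 and 20.7 in WT. In liver it held 108, 117, 102 and 126 against 61.3, 18.4, 13.6 and 15.2, with WT replicate 1 again the highest. In jejunum its genotypes overlapped, at 57.4, 64.6, 39.6 and 151 against 36.8, 9.89, 17.8 and 62.4. These are not separate evidence, since the overlapping models can draw on the same transcripts. Zbed6 and the second Zc3h11a were in none of the tables used here.

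With the trend of gene length taken out, the log2 fold change of Zc3h11a was 1.15 in liver, 1.20 in jejunum and 2.21 in ileum. The 200 genes nearest to it in length had median authors' log2 fold changes of 0.55, 0.40 and 0.43, and 3.5%, 7.5% and 0.5% of them lay above Zc3h11a. Its WT level was 0.517 ± 0.165 FPKM in ileum, 0.870 ± 0.402 in jejunum and 1.43 ± 0.745 in liver (SD, n = 4), neighbours in that order being within each other's spread.

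**Figure D2:**
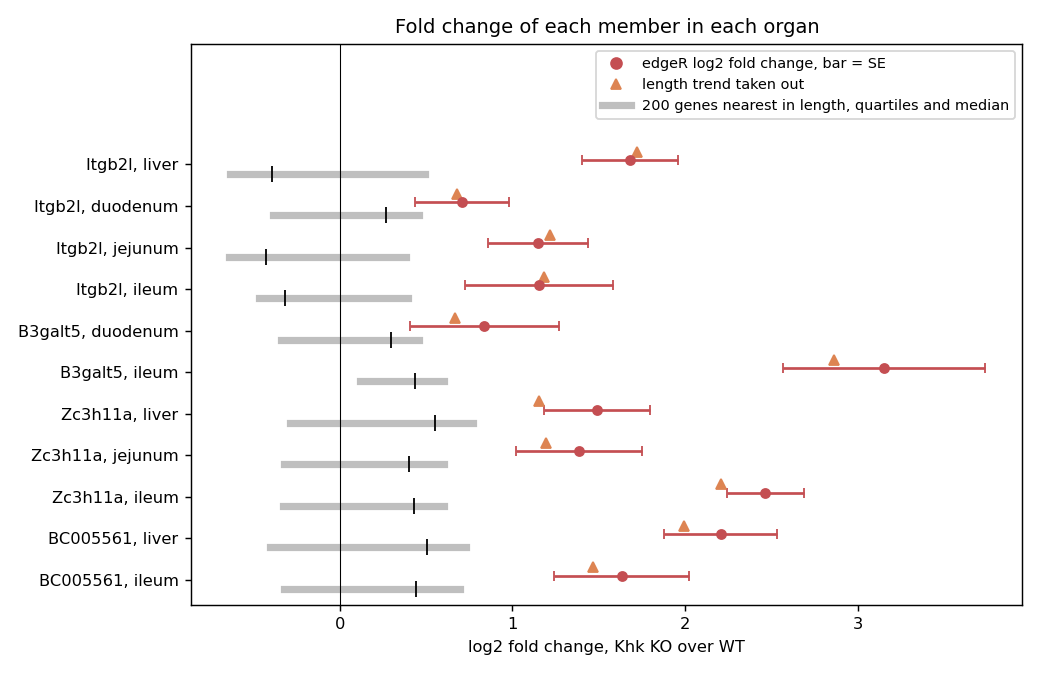
Difference between Khk KO and WT, as log2 fold change, for each member and organ by edgeR (red points, bars are SE), with the trend of gene length taken out (triangles), beside the quartiles and median of the authors' values for the 200 genes nearest in length (grey bars). All 11 points lie above 0 and above the upper quartile of the genes of like length, from 0.71 for Itgb2l in duodenum to 3.15 for B3galt5 in ileum. The members were picked from this contrast for large differences, so this position says nothing beyond the choice.

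BC005561 was listed in liver and ileum, and the genotypes were apart in both. In liver the Khk KO libraries held 280, 201, 208 and 194 normalised counts and the WT libraries 84.3, 43.3, 24.95 and 40.8. The log2 fold change of 2.21 ± 0.33 (SE) was 2.62 without WT replicate 1, again the highest WT liver. In ileum the Khk KO libraries held 97.4, 91.9, 190 and 100.2 normalised counts and the WT libraries 54.7, 31.4, 51.8 and 16.6, a log2 fold change of 1.63 ± 0.39 (SE).

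These are small counts. The raw reads of BC005561 were 175 to 292 in the Khk KO livers and 33 to 77 in the WT livers, and 102 to 161 against 16 to 50 in ileum. Per length, its WT level was 0.764 ± 0.387 FPKM in liver and 0.341 ± 0.157 in ileum (SD, n = 4), which overlap. With the trend of gene length taken out, its log2 fold changes were 1.99 in liver and 1.47 in ileum, and 3.0% and 6.0% of the 200 genes nearest in length lay above it.

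Thoc2, the relative of BC005561 on chromosome X, differed the same way by a smaller factor. Its liver means were 596 ± 33.5 normalised counts in knockouts and 270 ± 88.2 in controls, or 2.21 times as much, where BC005561 had 4.57 times. In ileum the means were 1141 ± 179 and 683 ± 77.3 (SD, n = 4), or 1.67 times, where BC005561 had 3.10 times. Whether these factors differ was not tested, since BC005561 was picked for its size. WT replicate 1 was the highest WT liver library for Thoc2 as well, at 384 normalised counts.

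The gene next to BC005561 also differed in the same organs. Pkd2, the gene of the cation channel polycystin-2, ends 2.53 kb before BC005561 on the same strand. Its means were 442 ± 41.2 normalised counts in knockout and 226 ± 107 in control livers, and 928 ± 130 against 611 ± 87.8 in ileum (SD, n = 4). Its genotypes were apart in both organs, as held with Khk KO higher for 34.3% of listed genes in liver and 36.9% in ileum. In liver the lowest Khk KO library held 1.02 times the highest WT library. Whether transcription that runs on from Pkd2 adds to the count of BC005561 was not tested.

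**Figure D3:**
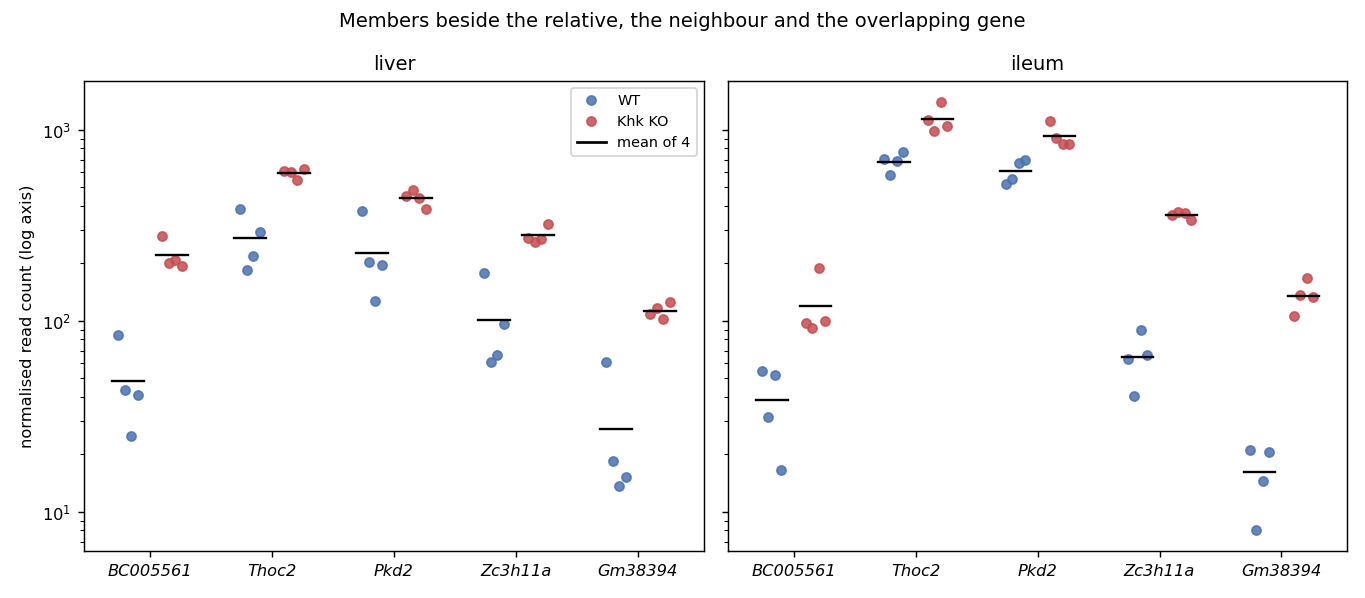
Normalised read counts (log axis) per library in liver and ileum for BC005561, its relative Thoc2 and its upstream neighbour Pkd2, and for Zc3h11a and the overlapping model Gm38394, with WT in blue, Khk KO in red and lines at the mean of 4. For all 5 genes the Khk KO libraries sit above the WT libraries in both organs. The same held for 34.3% of listed genes in liver and 36.9% in ileum. The highest WT liver library of each of the 5 is replicate 1.

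Zc3h11a and BC005561 are both tied to messenger RNA export, and 27 other genes of that machinery were followed, of which 26 have an annotated gene of that symbol. In liver 4 of them were called in the authors' deposited table, with 2 in each direction, and in ileum 2, with 1 in each direction, against 23.9% and 15.6% of all genes. In liver Thoc2 and Nup98, the gene of a nuclear pore protein, were higher, the latter at 547 ± 58.1 against 336 ± 112 normalised counts. Ncbp2, the gene of a cap-binding protein, was lower at 217 ± 33.2 against 364 ± 51.0, and Alyref2, an export adaptor gene, at 8.18 ± 3.04 against 23.2 ± 13.1 (SD, n = 4). In ileum Thoc2 was the higher one, and Thoc6, another THO subunit gene, was lower at 164 ± 16.1 against 241 ± 41.8 normalised counts (SD, n = 4). Duodenum listed 1 and jejunum 3, and the authors' deposited tables called 0 in both. The edgeR fit called 2 in liver and 1 in ileum.

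The neighbourhood of the members was described by the protein-coding genes within 1 Mb, 77 over all 4, leaving out the members and Khk. In liver 13 of them were called in the authors' deposited table, with 9 higher and 4 lower in Khk KO, or 16.9% against 17.6% of all annotated protein-coding genes. In ileum 12 were called there, with 9 higher and 3 lower, or 15.6% against 10.6%. In duodenum it called 1, which was lower, and in jejunum 0, where the shares over all protein-coding genes were 0.0866% and 0.273%. The called genes include Gm38394, which draws on the Zc3h11a locus.

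Next to B3galt5 and Itgb2l, few genes were listed. Brwd1, the gene of a bromodomain protein 153 kb before B3galt5, had 915 ± 31.2 normalised counts in knockout and 397 ± 110 in control livers, and 1190.5 ± 232 against 740 ± 46.9 in ileum (SD, n = 4). Psmg1, a proteasome assembly factor gene 245 kb away, was lower in liver at 197 ± 9.53 against 298 ± 78.2 (SD, n = 4). Igsf5, which spans Itgb2l, was in none of the tables used here. These neighbours did not share the direction of the members throughout.

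Near Zc3h11a the directions were mixed as well. Mdm4, the gene of a p53 inhibitor 589 kb away, had 1178 ± 64.5 normalised counts in knockout and 432 ± 146 in control livers, and 2236 ± 99.1 against 1102 ± 374 in ileum (SD, n = 4). Snrpe, the gene of a spliceosome core protein 9.57 kb away, was lower, at 394 ± 125 against 799 ± 336 in ileum and 278 ± 60.9 against 572 ± 185 in duodenum (SD, n = 4). Near BC005561, the largest difference among called neighbours in ileum was that of Gbp10, a guanylate-binding protein gene with near-identical relatives that could share its reads, at 23.9 ± 12.1 against 6.80 ± 4.49 normalised counts (SD, n = 4).

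Around Khk itself, 52 protein-coding genes lie within 1 Mb. In liver 12 of them were called in the authors' deposited table, with 4 higher and 8 lower, and in ileum 9, with 0 higher and 9 lower, or 23.1% and 17.3% beside 17.6% and 10.6% of all annotated protein-coding genes. By edgeR the shares of these 52 were 11.5% in liver and 9.62% in ileum. It called 15.4% and 9.89% of the genes adjusted over, a base unlike the annotated protein-coding genes of the window. These shares therefore cannot be ranked against each other. In duodenum and jejunum the authors' deposited tables called 0, and the edgeR fit, which called 1 gene in each of these organs, also called 0 there. Cgref1, the gene beside Khk, had the largest difference among the called genes in ileum, with an authors' log2 fold change of -0.86. Nnt, partly deleted in the substrain C57BL/6J, was in none of the 4 tables used here, so it gives no mark of substrain.

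**Figure D4:**
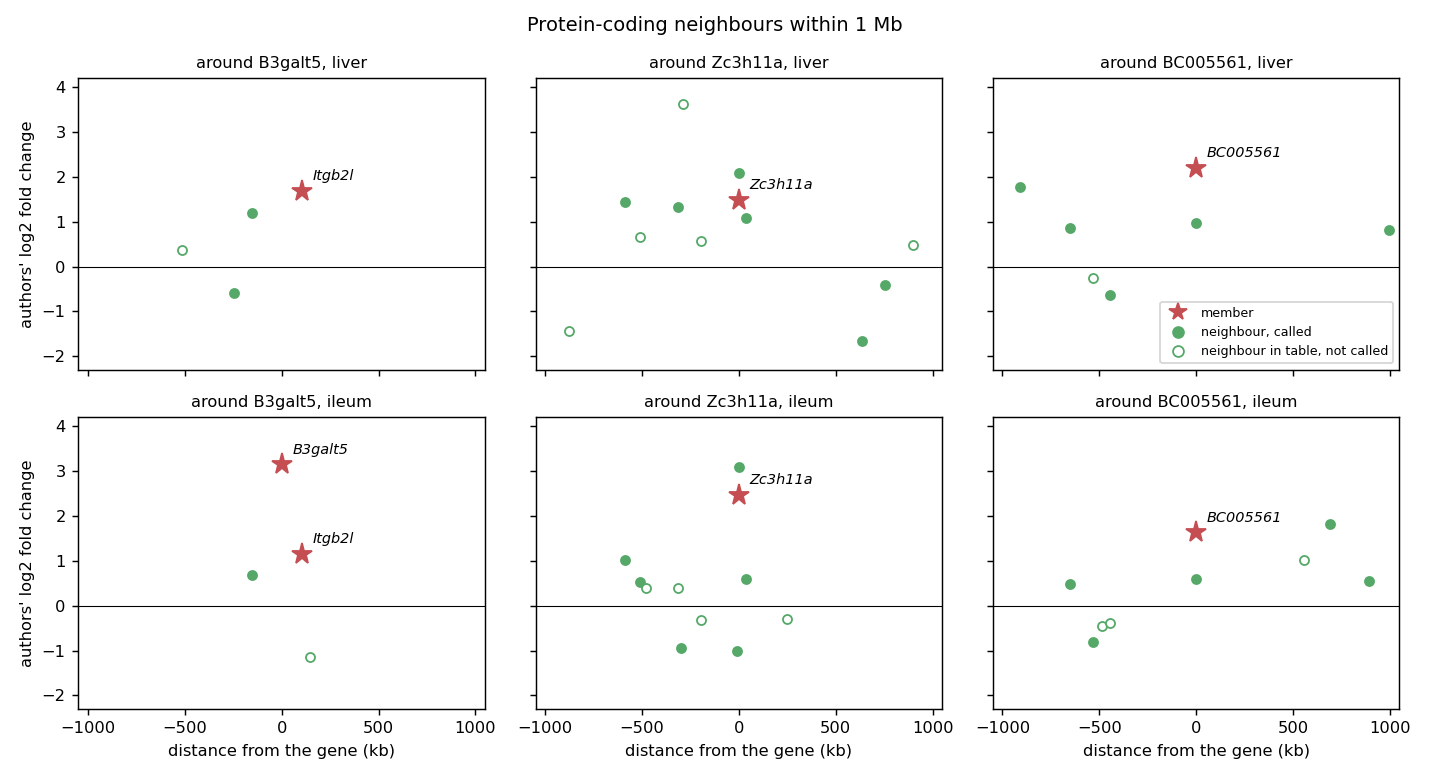
The authors' log2 fold change of protein-coding genes listed within 1 Mb of B3galt5, Zc3h11a and BC005561 in liver (top) and ileum (bottom), by distance in kb. Stars are members, filled circles called neighbours and open circles neighbours not called, and called neighbours lie on both sides of 0 in 5 of the 6 panels.

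The genes most like each member were found by the correlation of log2(normalised count + 1), centred in each organ, among genes listed in all of the member's organs. These points share genotype and depth, so the values only describe. For Itgb2l, over 32 libraries and 224 genes, Ogt came first with r = 0.93, ahead of Rnf213 (0.85). Ogt, the gene of the enzyme that adds N-acetylglucosamine to proteins, had 2117 ± 112 normalised counts in knockout and 946 ± 90.0 in control livers (SD, n = 4). For Zc3h11a, over 24 libraries and 898 genes, they were Pik3c2a, a phosphoinositide kinase gene (0.96), Lcor, a corepressor gene (0.95), and Nr2c2, a nuclear receptor gene (0.95).

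For BC005561, over 16 libraries and 2750 genes, the most alike were Trip11, a golgin gene (0.96), Pikfyve, a lipid kinase gene (0.94), and Aff4, an elongation factor gene (0.94). For B3galt5, over 16 libraries and 622 genes, the highest were Net1, an exchange factor gene (0.76), Lyve1 (0.75) and Plcxd2 (0.74). The searches covered unlike organs and numbers of genes, so the correlations of the members cannot be ranked against each other. Net1 overlapped between the genotypes in ileum, at 6220 to 8677 normalised counts in Khk KO against 4209 to 6783 in WT.

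Many genes besides the members recurred. There were 227 genes listed in all 4 tables, of which 65, Itgb2l among them, were higher in Khk KO in all 4 and 160 lower in all 4. The authors' deposited tables called 25 genes higher in at least 3 organs, and Itgb2l and Zc3h11a are among these 25, with Trip11, Lcor, Macf1 and Kmt2c. The authors' tables called 828 of the 10055 higher in at least 2 organs, a list that also holds BC005561. The members were picked for recurring rises, so their places in these lists say nothing beyond the choice.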

How the data were processed

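Libraries of polyadenylated RNA from 4 organs of male mice were grouped by the labels, 4 of each genotype per organ. The authors deposited a table per organ, which holds, per the file headers, read counts, a normalised signal (here called normalised counts, with each library's reads scaled by a single factor), a log2 fold change and p-values with adjusted p-values. The same tables hold FPKM, which the authors computed by scaling to a deposited gene length and a library total, per the file headers. HISAT2 2.0.5 and build GRCm38 are named in the submitters' processing notes, and the counting tool and test are not given in the sources used here. Only genes with an unadjusted p under 0.05 are in the tables. The authors' adjusted values imply adjustment over 18225 liver, 15615 duodenum, 9881 jejunum and 16034 ileum genes. Reads of the listed genes per library summed to 7505439 to 14331517 (liver), 1722220 to 3549978 (duodenum), 3053896 to 4325568 (jejunum) and 6531593 to 9149003 (ileum), so full depth is unknown.

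Counts were fitted per organ with edgeR 4.0.16 (R 4.3.3), filterByExpr and the quasi-likelihood test, scaled by the authors' size factors because these came from all genes. Its p-values were adjusted over the authors' numbers of genes. The SE is the log2 fold change divided by the square root of F. The script was tested on simulated data. DESeq2 1.42.0, TMM, no filter, the replicate block, a length offset (lowess, span 0.5) and leaving out each library were alternatives. Sequences were compared with BLAST 2.17.0. The members, gene lists and tests were chosen with earlier results of these data known. Named genes are the members, Khk, Nnt, up to 4 called genes per list or window by size of the authors' log2 fold change, and the 3 most correlated genes per member; not every such gene is printed. Igsf5, Itgb2, Zbed6, Macf1, Kmt2c and the marker genes were named outside that rule, with values known. The labels mention directional and non-directional libraries, so whether counting used strand is unknown.

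Labels give both genotypes replicate numbers 1 to 4. In jejunum all 4 same-numbered pairs deviated together, with correlations of 0.050 to 0.31. There 3 Khk KO libraries were closest to the WT library of their own number, against 2 in liver, 1 in duodenum and 0 in ileum. In no organ did every pair pass 0.1, so the numbers were not used as pairs in the main fits. With the number as a block, the jejunum SE fell from 0.36 to 0.18 for Zc3h11a and from 0.29 to 0.23 for Itgb2l. If replicate libraries are not separate mice, SDs and SEs measure only the spread between libraries.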

Additional observations from a re-analysis of the deposited data

Results flagged for a closer look

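BC005561 had a library far from the other 3 of its group in both organs that list it. In ileum, Khk KO replicate 3 held 190 normalised counts where the other 3 Khk KO libraries held 91.9 to 100.2, a gap of 0.915 of the whole range, past Dixon's critical value. Without that library the log2 fold change of 1.63 was 1.33. In liver, Khk KO replicate 1 held 280 normalised counts against 194 to 208 in the other 3, a gap of 0.830 of the range, just past the critical value. Chance puts about 1 group in 20 past it, and 22 groups of 4 were examined.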

How the results depend on the processing

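All 11 log2 fold changes of the members stayed above 0 under every alternative run. Of the alternatives, only leaving out Khk KO replicate 4 moved one by more than the spread between replicates, B3galt5 in ileum, to 2.18. Leaving out 1 library at a time gave 2.18 to 3.46 for B3galt5 in ileum and 0.43 to 1.08 in duodenum, where Khk KO replicates 1 and 3 set the ends, 1.33 to 1.84 for BC005561 in ileum and 1.98 to 2.62 in liver, 0.59 to 0.91 for Itgb2l in duodenum, 0.82 to 1.35 in ileum, 0.99 to 1.34 in jejunum and 1.56 to 1.83 in liver, and 2.29 to 2.67 for Zc3h11a in ileum, 1.15 to 1.74 in jejunum and 1.31 to 1.91 in liver. With the replicate number as a block, B3galt5 was at 2.66 in ileum and 0.68 in duodenum, and Zc3h11a at 2.51 in ileum. Correlations of deviations between same-numbered libraries ran from -0.27 to 0.31 over the organs, and the block lowered the edgeR calls from 1585 to 471 in ileum and from 2807 to 2266 in liver. TMM raised the median log2 fold change of the duodenum table from -0.33 to -0.18 and put Itgb2l there at 0.85 and B3galt5 at 1.02.

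With edgeR's adjusted p in place of the authors', 0% of the 77 genes around the members were called in duodenum and 11.5% of the 52 around Khk in liver and 9.62% in ileum, and the export list had 2 called genes in liver and 1 in ileum, the sugar chain list 2 in each. The cause was not tested. By the authors' adjusted p, a window of 250 kb around the members gave 21.7% in liver and ileum. That is 5 of 23 genes in each, with Gm38394 among them. A window of 5 Mb gave 21.9% and 12.9%, beside 17.6% and 10.6% of all annotated protein-coding genes. Around Khk, 250 kb gave 4 of 20 genes in liver and 6 of 20 in ileum, and 5 Mb gave 15.7% and 9.70%. Counts as low as 16 reads limit the members' values in WT.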
